A study of Mus musculus with 28 samples.

Results

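The 10 immediate early genes outside the AP-1, EGR and NR4A families that were followed here in the mouse pituitary were the IER genes Ier2, Ier3, Ier5 and Ier5l, the Krüppel-like factor (KLF) genes Klf2, Klf4, Klf6 and Klf10, the small MAF gene Maff, and Myc. They were chosen by name, with earlier results of these data known, and make up 10 of the 32594 rows of the count table. The RNA came from whole pituitaries of 28 C57BL/6J mice without any transgene, 8 weeks old on arrival, 16 of them female and 12 male. Home cage controls (4 females, 4 males) were neither deprived of sleep nor restrained. Restraint mice (4 females, 2 males) spent 20 min in a restrainer, and glands were taken 10 min later. Mice with paradoxical sleep deprivation (PSD; 4 females, 3 males) were kept for 12 h on small columns above water, which wakes an animal when muscle tone is lost in REM sleep, and glands were taken 18 h after PSD ended. PSD + restraint mice (4 females, 3 males) received both, with the restraint at the end of that interval. Mice of every group, controls included, had been adapted to the PSD tank beforehand. The samples are different animals, and in a whole gland more transcript per cell and more cells that carry it cannot be told apart.

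Immediate early genes are transcribed within minutes of a stimulus, from transcription factors that are already present in the cell, such as CREB, SRF and its partners. IER proteins are short-lived nuclear or membrane-associated regulators, and IER3 acts on cell survival. KLF proteins are zinc finger transcription factors that bind GC-rich elements, and KLF2 and KLF4 are best known from endothelium and from cell quiescence. MAFF is a small bZIP protein without a transactivation domain that pairs with CNC factors such as NRF2, and MYC drives growth programmes from E boxes together with MAX. In the pituitary, hypothalamic CRF raises cAMP in corticotropes after a stressor, and induction of early response genes in these cells is a known part of that response.

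Against controls, Klf4 and Maff rose after restraint when the mice of both sexes were fitted together. Klf4, Maff, Ier3 and Klf2 rose after PSD + restraint in that fit. No member was called between PSD + restraint and restraint mice there, with log2 differences of 0.61 for Ier3 and 0.14 for Klf2. The Klf2 call against controls was lost in several alternative fits given below. Ier2 was higher than in control males after restraint, PSD and PSD + restraint (log2 fold changes 1.34, 1.04 and 1.07), from a control level lower than that of females. Only the last was called, and that call was lost in 6 of 7 fits with a mouse of the compared groups left out. Myc was about 5 times as abundant in control females as in control males. Klf6 and Klf10, 2 of the most abundant members per length, passed the test in no comparison.

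Levels can be compared between genes only per length, and on the scale of CPM (counts scaled to library size) per kilobase of exon (CPM per kb), control females ranked as follows. Ier2 had 19.3 ± 3.79 (SD, n = 4), Myc 13.7 ± 5.17 and Klf6 10.1 ± 0.376 CPM per kb, and the ranges over mice of neighbours in this order overlapped. Klf10 followed with 5.08 ± 0.597, clear of Klf6. Ier5 (2.98 ± 0.202), Klf2 (2.76 ± 0.486) and Ier3 (2.71 ± 0.432) could not be separated by their spread. Klf4 stood below them at 0.945 ± 0.149, and Maff (0.55 ± 0.176) and Ier5l (0.391 ± 0.0782) overlapped at the bottom. In control males Klf6 was at the top with 10.3 ± 1.05 (n = 4), Ier2 had 8.75 ± 1.95 and Myc only 2.58 ± 0.755 CPM per kb. The 4 members called in all mice after PSD + restraint lay below Klf10 in control females, and the whole libraries held 52 to 335 counts of Klf4, 24 to 210 of Maff, 73 to 301 of Ier3 and 47 to 439 of Klf2.

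The promoters of the 4 genes that rose in all mice after PSD + restraint are shown because the stimuli named above act on such sequences; each is the 250 bases before a transcription start in RefSeq (GRCm38.p6), written 5′ to 3′ on the strand of the gene. Capitals mark matches to the cAMP response element TGACGTCA, to its shorter core TGACG on either strand, or to the E box CACGTG, motifs searched on both strands and chosen after the values were known.
Maff, chr15:79347270-79347519, plus strand: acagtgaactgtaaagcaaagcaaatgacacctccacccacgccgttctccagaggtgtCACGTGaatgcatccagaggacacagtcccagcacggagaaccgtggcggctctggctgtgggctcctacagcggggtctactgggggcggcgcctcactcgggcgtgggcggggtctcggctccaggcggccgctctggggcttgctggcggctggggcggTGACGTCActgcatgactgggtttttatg
Klf4, chr4:55532476-55532725, minus strand: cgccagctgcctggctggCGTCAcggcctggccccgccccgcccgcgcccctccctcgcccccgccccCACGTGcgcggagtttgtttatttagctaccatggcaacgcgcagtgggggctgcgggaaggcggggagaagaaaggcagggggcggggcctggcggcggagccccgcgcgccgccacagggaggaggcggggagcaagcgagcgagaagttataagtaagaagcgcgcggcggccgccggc
Klf2, chr8:72318812-72319061, plus strand: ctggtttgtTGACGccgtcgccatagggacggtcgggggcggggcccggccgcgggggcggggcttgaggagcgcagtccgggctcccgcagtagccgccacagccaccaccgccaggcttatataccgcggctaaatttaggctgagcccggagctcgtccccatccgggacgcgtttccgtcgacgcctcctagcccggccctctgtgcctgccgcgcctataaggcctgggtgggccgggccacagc
Ier3, chr17:35821463-35821712, plus strand: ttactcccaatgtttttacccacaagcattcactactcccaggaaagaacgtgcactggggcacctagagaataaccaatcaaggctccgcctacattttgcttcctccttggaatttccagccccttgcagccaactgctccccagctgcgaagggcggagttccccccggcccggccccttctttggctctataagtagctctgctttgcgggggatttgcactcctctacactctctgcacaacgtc

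Maff, which has 3 annotated starts, carried the full cAMP response element beginning 29 bases before the start shown, and an E box further upstream. Of all 32851 mouse promoters of this length, 1.55% held the full element, and among the 7 members with a promoter in the table (all but Ier2, Klf10 and Myc) only Maff did. The core TGACG, which the full element contains, was found in Maff, Klf4 and Klf2 and in 17.8% of all promoters, and the E box in Maff, Klf4 and Klf6 and in 6.02%. No member promoter held the AP-1 site TGANTCA (6.75% of all promoters) or a CArG box, the SRF site (1.47%). The window of Ier3 held none of these letters. A match describes the sequence and shows no binding.

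Libraries held 14024465 to 52948531 counts, with a median of 33389717. Gh, Prl and Pomc transcripts were abundant in every mouse, which matches the tissue label. Male control mouse 1 stood apart by its low posterior lobe transcripts, with a sum of 14.2 CPM over 6 marker genes (Avp, Oxt, Rax, Col25a1, Scn7a, Vcan) where the other 27 mice had 74.4 to 170. Neurointermediate lobe transcripts were summed over 8 markers, all of them detected in every mouse. The sum ran from 2776 to 3875 CPM in control females, from 3165 to 5355 after restraint, from 4213 to 7735 after PSD and from 4140 to 6297 after PSD + restraint. In males it ran from 4746 to 5911, 5141 to 6413, 5767 to 6968 and 5991 to 8026 CPM. By this sum, PSD and control mice overlapped in males and not in females. The neurointermediate lobe score used below as a covariate is the mean log2 CPM of the same 8 markers. By this score PSD and control mice overlapped in females too, at 6.64 to 6.91 in controls and 6.86 to 7.65 after PSD. Male control mouse 1 had the lowest score of all mice, 5.98, where the other 27 had 6.64 to 7.65. None of the 8 markers was called after PSD alone in females, males or all mice. After PSD + restraint 1 was called higher in females, none in males and 4 in all mice. Neutrophil markers were low, but 5 of 6 tested were called higher after PSD + restraint in all mice, with PSD + restraint male 2 at a sum of 103 CPM PSD + restraint female 4 at 12.1 and PSD males 2 and 3 at 13.1 and 15.8, against 5.48 to 11.8 in control males and 0.997 to 2.14 in control females; Retnlg and Cxcr2 were at 0 in some mice. The part of these cells in the results was not tested, and the values without male control 1 and without those PSD + restraint mice are given below. Endothelial markers, named because KLF2 and KLF4 are endothelial factors, summed to 221 to 236 CPM in control females and 211 to 278 in PSD + restraint females, and to 233 to 289 and 201 to 239 CPM in the males. None of the 10 was called in any comparison of treatments (median log2 fold change after PSD + restraint 0.11 in females and -0.28 in males), and 3 were called lower in control females than in control males. In females 3 other sums lay higher after PSD + restraint than in every control: macrophage markers (140 to 158 against 116 to 122 CPM, 2 of 9 called), smooth muscle and pericyte markers (106 to 120 against 84.3 to 94.2, 2 of 8 called) and posterior lobe markers (131 to 165 against 74.4 to 114, 0 of 6 called). Their part in the results was not tested.

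**Figure D1:**
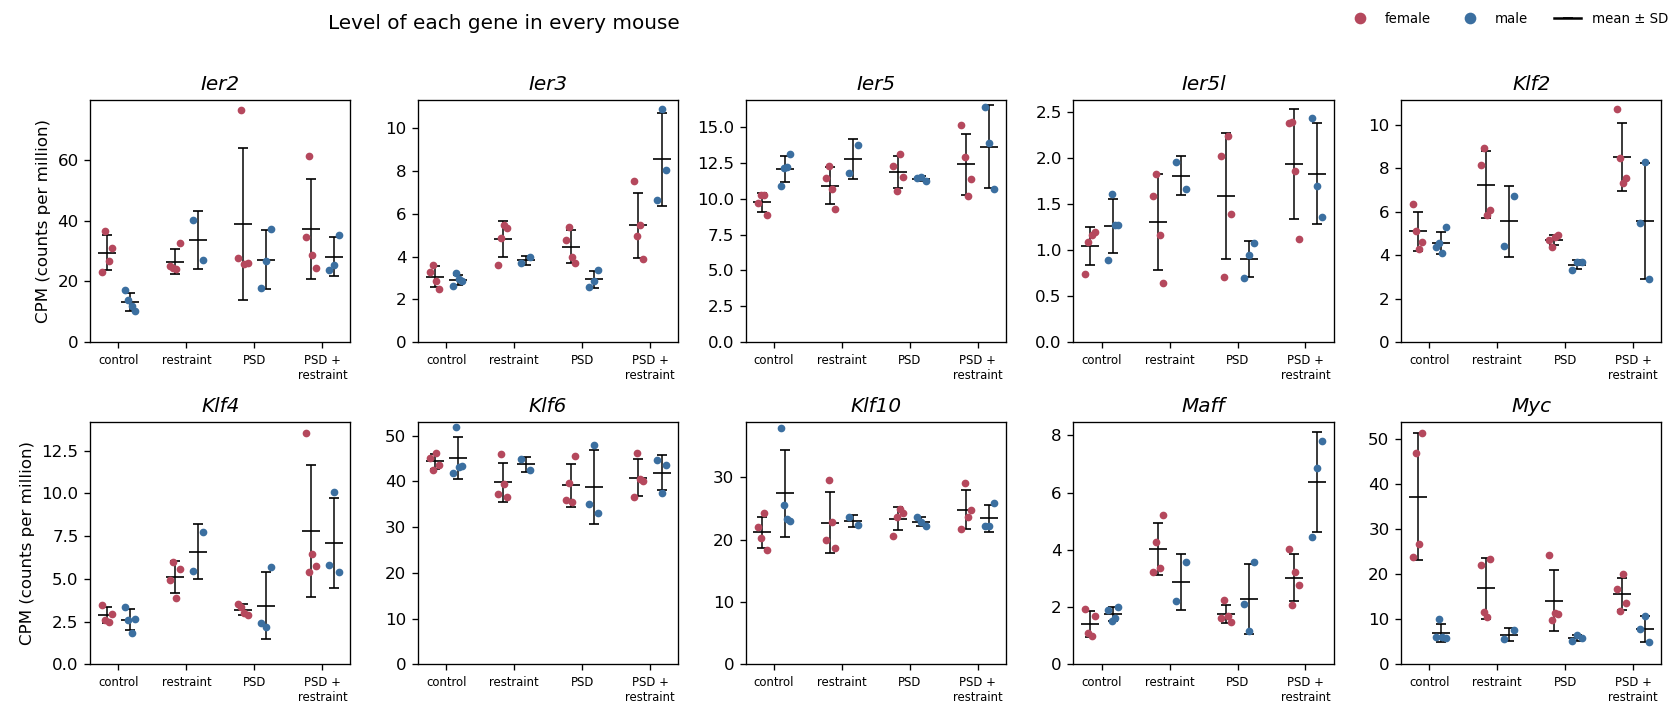
Level of each of the 10 genes in every mouse, in CPM, by treatment group and sex; each point is a mouse. Klf4 and Maff in all 13 restrained mice lay above all 8 controls, while Klf6 and Klf10 overlapped the controls of the same sex in every group. Horizontal lines and bars give the mean and SD of a group.

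Klf4, a zinc finger factor known for holding cells in quiescence, was counted at 3.50, 2.58, 2.51 and 2.94 CPM in the 4 control females and at 3.33, 2.62, 1.85 and 2.64 CPM in the 4 control males. After restraint the females had 4.97, 6.00, 3.86 and 5.60 CPM and the males 5.47 and 7.74 CPM. Every restrained mouse was above every control of either sex. Fitted over all mice, Klf4 rose 2.04-fold (log2 fold change 1.03, standard error 0.22, adjusted p = 0.00767, quasi-likelihood test of edgeR, adjusted over all genes tested by Benjamini-Hochberg). Within a sex the log2 fold change was 0.83 in females (adjusted p = 0.193) and 1.33 in males (adjusted p = 0.350), which did not pass. After PSD + restraint the females had 13.6, 5.43, 6.46 and 5.77 CPM and the males 5.80, 10.1 and 5.39 CPM, again all above the controls, with female 1 far above the rest. This rise passed in females (log2 fold change 1.41, standard error 0.25, adjusted p = 0.00647), in males (1.44, standard error 0.33, adjusted p = 0.0368) and in all mice (1.44, standard error 0.21, adjusted p = 4.04e-05). It was called in males neither without PSD + restraint male 2 (log2 fold change 1.10, adjusted p = 0.184) nor without PSD + restraint male 1 or any of control males 2, 3 and 4 (1.32 to 1.58, adjusted p 0.0751 to 0.107).

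Maff was the least abundant of the genes that rose, with 1.94, 1.09, 0.997 and 1.68 CPM in control females and 1.91, 1.5, 1.63 and 1.99 CPM in control males. Restrained females had 3.24, 4.27, 3.38 and 5.22 CPM and restrained males 2.2 and 3.58 CPM, without overlap with the controls. The rise passed in females at 2.79-fold (log2 fold change 1.48, standard error 0.25, adjusted p = 0.00957) and in all mice at 2.44-fold (1.29, standard error 0.25, adjusted p = 0.00376), and in males the log2 fold change was 0.72 with a 95% interval from -0.05 to 1.5. The restrained mice of the sexes overlapped, with only 2 males, and the response differed by 0.75, female minus male (95% interval -0.18 to 1.68). After PSD + restraint females had 4.03, 2.07, 3.23 and 2.78 CPM and males 4.45, 6.85 and 7.81 CPM. Every PSD + restraint male thus exceeded every PSD + restraint female. The log2 fold change was 1.05 in females (standard error 0.25, adjusted p = 0.0367), 1.84 in males (standard error 0.32, adjusted p = 0.00988) and 1.44 in all mice (standard error 0.24, adjusted p = 0.000224). The call in females was lost without any one of PSD + restraint females 1, 3 and 4 or control females 2, 3 and 4 (log2 fold change 0.89 to 1.13, adjusted p 0.0628 to 0.122), and in a fit of only the groups compared (1.02, adjusted p = 0.0596). The difference of the PSD + restraint response between the sexes, female minus male, was -0.81 (95% interval -1.68 to 0.06, adjusted p = 0.708).

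Ier3, whose product modulates apoptosis and ERK signalling, had a narrow control range of 2.51 to 3.62 CPM over both sexes. Restrained females had 3.63, 4.88, 5.49 and 5.32 CPM and restrained males 3.68 and 3.97 CPM. All 6 lay above all 8 controls, the lowest of them by a small margin, and the log2 fold change over all mice was 0.58 (standard error 0.18, adjusted p = 0.134). PSD + restraint females had 7.53, 4.94, 5.48 and 3.9 CPM, and PSD + restraint males 6.67, 10.9 and 8.06 CPM. This rise passed in females (log2 fold change 0.83, standard error 0.20, adjusted p = 0.0355), in males (1.56, standard error 0.17, adjusted p = 0.000512) and in all mice (1.19, standard error 0.18, adjusted p = 4.7e-05). In females it was lost without any one of PSD + restraint females 1, 2 and 3 or control females 3 and 4 (0.65 to 0.88, adjusted p 0.0609 to 0.120). PSD alone left females at 4.78, 5.4, 3.98 and 3.72 CPM, all above the control females. PSD males had 2.60, 2.84 and 3.36 CPM, overlapping the control males (2.63 to 3.23 CPM). In males the PSD + restraint level exceeded that of PSD alone 2.91-fold (log2 fold change 1.54, standard error 0.18, adjusted p = 0.00682), and in females 1.22-fold (0.29, standard error 0.20, adjusted p = 0.708). The male call was lost without PSD male 1 or 2 (adjusted p = 0.0529 and 0.0635). The difference between those responses, female minus male, was -1.26 (standard error 0.28), which had an unadjusted p of 0.000144 and an adjusted p of 0.961 over 18936 genes.

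Klf2, a factor with a large endothelial repertoire, was counted at 6.35, 5.11, 4.30 and 4.62 CPM in control females and at 10.7, 8.48, 7.31 and 7.53 CPM in PSD + restraint females. The groups did not overlap, and the rise passed (log2 fold change 0.74, standard error 0.16, adjusted p = 0.0223), though not without any one of PSD + restraint females 1 and 2 or control females 2, 3 and 4 (0.62 to 0.74, adjusted p 0.0565 to 0.0826). Restrained females had 8.13, 8.93, 5.84 and 6.07 CPM, and 2 of them lay within the control range (log2 fold change 0.52, adjusted p = 0.222). Control males had 4.35, 4.53, 4.08 and 5.28 CPM, and restrained males had 4.40 and 6.72 CPM, with the first in the control range. PSD + restraint males had 5.50, 8.26 and 2.91 CPM, lying on both sides of the controls. PSD males had 3.32, 3.70 and 3.67 CPM, all below the control males, and this did not pass (log2 fold change -0.35, adjusted p = 0.747). The log2 fold change of males after PSD + restraint was 0.31 (95% interval -0.24 to 0.86). In all mice Klf2 rose after PSD + restraint by 0.54 on the log2 scale (standard error 0.15, adjusted p = 0.0193), a call that was lost without PSD + restraint female 1 (adjusted p = 0.0540), without PSD + restraint male 2 (adjusted p = 0.0782), and without the PSD + restraint mouse of each sex with the highest neutrophil marker sum (log2 fold change 0.43, adjusted p = 0.110). With the neurointermediate lobe score as a covariate it was 0.27 (adjusted p = 0.505).

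Without those 2 PSD + restraint mice, the all-mice log2 fold changes after PSD + restraint were 1.11 for Ier3 (adjusted p = 3.6e-05), 1.38 for Klf4 (adjusted p = 0.00036) and 1.40 for Maff (adjusted p = 0.00132), a setting added after seeing the data. Without male control 1 they were 1.16 for Ier3, 1.48 for Klf4 and 1.45 for Maff, and the same 4 genes were called in males. With the neurointermediate lobe score as a covariate, none of the 4 calls in females remained (adjusted p 0.229 to 0.452), with log2 fold changes of 0.64 for Ier3, 0.48 for Klf2, 1.01 for Klf4 and 0.85 for Maff where they had been 0.83, 0.74, 1.41 and 1.05. Over all genes the calls in this comparison fell from 398 to 52. The score ran from 6.64 to 6.91 in control females and from 7.06 to 7.40 in PSD + restraint females, so that covariate and treatment cannot be fully separated there. With the covariate Klf4 was no longer called in males, at 1.39 against 1.44 (adjusted p = 0.162). In all mice Ier3, Klf4 and Maff were still called and Klf2 was not, while the calls over all genes fell from 1034 to 534.

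Ier2, which codes for a small nuclear regulator, differed between the sexes before any treatment. Control females had 23.2, 36.6, 26.8 and 31.0 CPM and control males 17.3, 13.7, 11.8 and 10.4 CPM, without overlap (log2 difference 1.13, standard error 0.32, adjusted p = 0.0171), a call that was lost without control female 2 or control male 4 (1.01 and 1.03, adjusted p = 0.0594 and 0.0545). Treated males were higher than control males in each of the 8 cases, with 40.4 and 27 CPM after restraint, 17.9, 26.7 and 37.2 CPM after PSD, and 23.9, 25.4 and 35.5 CPM after PSD + restraint. Except for PSD male 1, at 17.9 CPM just above the highest control male, these values lie in the range of the control females or above it. The log2 fold change in males was 1.34 after restraint (standard error 0.26, adjusted p = 0.0693), 1.04 after PSD (standard error 0.24, adjusted p = 0.210) and 1.07 after PSD + restraint (standard error 0.24, adjusted p = 0.0355), and the last of these was called. Without male control 1 the restraint comparison passed as well (1.49, adjusted p = 0.0357). Leaving out any single PSD + restraint male ended the PSD + restraint call (adjusted p 0.0762 to 0.0912), as did leaving out control male 2, 3 or 4 (0.0686 to 0.105). In females restraint gave 25.2, 24.5, 24 and 32.6 CPM, PSD 27.7, 76.5, 25.8 and 26.0 CPM, and PSD + restraint 34.7, 61.2, 28.7 and 24.6 CPM. A single mouse stood high in each of the PSD groups, the others overlapped the controls, and no comparison passed (log2 fold changes -0.14 to 0.41). The response to restraint differed between the sexes by -1.48, female minus male (standard error 0.49, unadjusted p = 0.00574), and this did not pass over all genes (adjusted p = 1).

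Myc, the growth regulator of the group, showed the widest sex difference in controls among the 10 genes. Control females had 23.8, 47.1, 26.7 and 51.5 CPM and control males 6.03, 10.1, 6.00 and 5.95 CPM, a 5.3-fold difference (log2 2.41, standard error 0.32, adjusted p = 1.28e-05). Treated females had 22, 11.6, 10.6 and 23.5 CPM after restraint, 24.2, 9.83, 11.4 and 11.2 CPM after PSD, and 16.8, 11.8, 20.1 and 13.7 CPM after PSD + restraint. Of these 12 mice 11 were below the lowest control female. The exception, PSD female 1, had the highest sum of forebrain marker transcripts of all mice (129 CPM). The next highest sums were in PSD + restraint female 4 (100 CPM) and PSD female 3 (95.6 CPM), with Myc at 13.7 and 11.4 CPM. The part of forebrain tissue in these values was not tested. The log2 fold changes against control were -1.13, -1.39 and -1.25, with adjusted p of 0.184, 0.109 and 0.0579, so that none was called by edgeR in the fit over all 4 groups, while DESeq2 called the latter 2 (adjusted p = 0.0203 and 0.0205). A fit of only the groups compared called the PSD + restraint difference by edgeR too (-1.26, adjusted p = 0.0296). The control females themselves spanned 23.8 to 51.5 CPM, and without control female 1 the PSD + restraint comparison passed (log2 fold change -1.43, adjusted p = 0.0340). Males stayed between 5.02 and 10.7 CPM in all 4 groups, and their log2 fold changes were -0.07, -0.25 and 0.19, all with intervals that include 0. The difference of the PSD + restraint response between the sexes was -1.45, female minus male (95% interval -2.41 to -0.48, unadjusted p = 0.00489, adjusted p = 0.573).

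**Figure D2:**
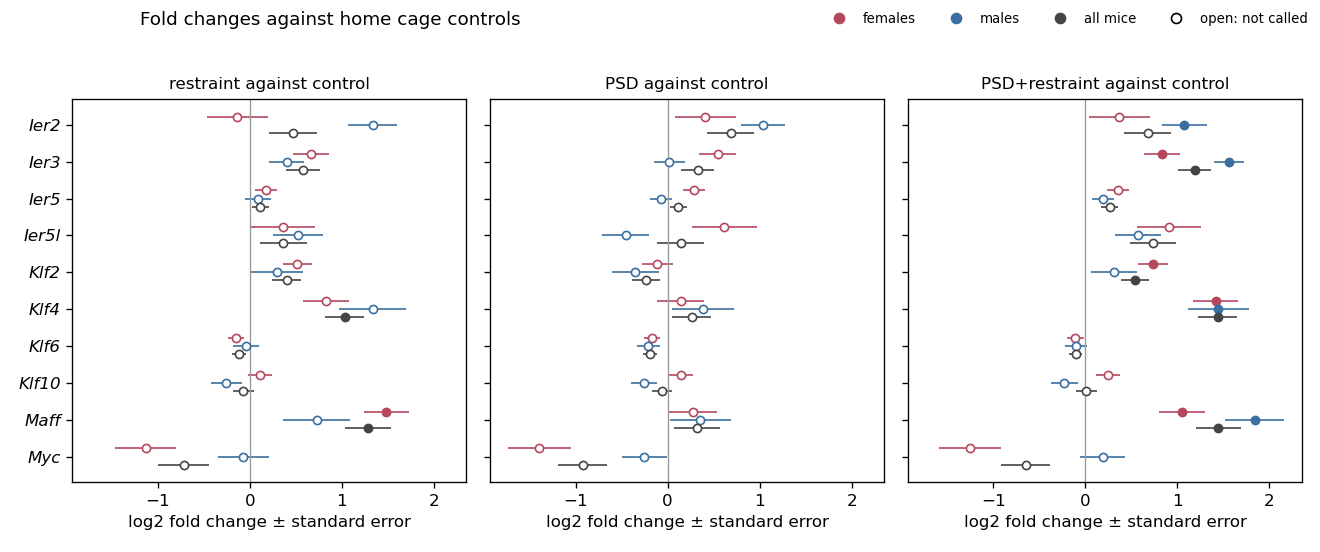
Log2 fold changes of the 10 genes against home cage controls after restraint, PSD and PSD + restraint, in females, males and all mice; bars are standard errors, and filled points passed the test. Klf6 and Klf10 are open in each panel, Klf4, Maff and Ier3 are filled in all 3 fits after PSD + restraint, and Myc in females lies between -1.13 and -1.39.

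The other 4 members passed in no comparison with control. Ier5, a regulator of heat shock factor and phosphatase activity, lay between 8.84 and 13.1 CPM in the 8 controls and between 10.2 and 16.4 CPM in the 7 PSD + restraint mice (log2 fold change over all mice 0.26, 95% interval 0.08 to 0.45, adjusted p = 0.0561). Ier5l, its relative, was scarce, with 0.742 to 1.61 CPM in controls and 1.12 to 2.44 CPM after PSD + restraint (0.73, 95% interval 0.22 to 1.24, adjusted p = 0.0555), and DESeq2 called it (adjusted p = 0.0328). It also passed by edgeR without PSD + restraint female 4, PSD + restraint male 3 or control male 2 (0.79 to 0.82, adjusted p 0.0369 to 0.0411). Its libraries held as few as 13 counts. Klf6 had 41.8 to 51.9 CPM in controls and 36.5 to 46.3 CPM after PSD + restraint, and its all-mice log2 fold changes against control were -0.11, -0.19 and -0.11 for restraint, PSD and PSD + restraint, with intervals reaching no further than -0.34 and 0.05. Klf10, a TGF-beta-inducible repressor, had 18.4 to 37.9 CPM in controls and 21.8 to 29.2 CPM after PSD + restraint. Its log2 fold change was 0.01 in all mice (95% interval -0.21 to 0.24), 0.24 in females and -0.23 in males. The difference between the sexes, female minus male, was 0.46 (95% interval 0.03 to 0.89, adjusted p = 0.679), and 0.27 without male control 1.

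Counted over the 10 genes, restraint alone gave 1 call in females (Maff, where 0.543% of all genes tested were called), 0 in males (0.296%; 2 members and 927 of 18271 genes had an unadjusted p under 0.05, and DESeq2 called Ier2 and Klf4) and 2 in all mice (1.14%). PSD + restraint against control gave 4 calls in females (2.2% of genes tested in either direction, 1.53% higher), 4 in males (2.56% and 1.92%) and 4 in all mice (5.46% and 4.1%), all of them higher, and Ier3, Klf4 and Maff were called in each of the 3 fits. In all mice 8 of the 10 log2 fold changes were positive, with a median of 0.61 against 0.00 over all genes tested. Klf4, Maff and Ier3 were the 3 members whose 6 restrained or 7 PSD + restraint mice were all above the 8 controls, as were 0.581% and 1.16% of all genes. Because the members were chosen with earlier results of these data known, the shares over all genes are a description and no test of enrichment.

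PSD alone, 18 h after it ended, gave no call among the members in females (0.0277% of genes called), in males (0.00547%) or in all mice (0.671%) by edgeR. An unadjusted p under 0.05 was reached by 3 members in females (Ier3 0.55, Ier5 0.29 and Myc -1.39 on the log2 scale), by Ier2 in males, and by 3 in all mice (Ier2 0.68, Klf6 -0.19 and Myc -0.92), where 3567 of 18059, 1617 of 18271 and 3328 of 18936 of all genes reached it. DESeq2 called Myc lower in females and in all mice (adjusted p = 0.0203 and 0.0474) and no other member. Over all genes DESeq2 called 442 in females, 85 in males and 286 in all mice, where edgeR called 5, 1 and 127. For Klf4 the PSD females had 3.53, 3.38, 2.98 and 2.87 CPM and the PSD males 2.44, 2.17 and 5.72 CPM; PSD female 1 stood just above the highest control (3.50 CPM) and PSD male 3 clearly above it. Maff had 1.61, 2.24, 1.69 and 1.5 CPM in PSD females and 2.12, 1.16 and 3.56 CPM in PSD males, with male 3 again the highest. The log2 fold changes over all mice were 0.26 for Klf4 (95% interval -0.18 to 0.70) and 0.32 for Maff (-0.19 to 0.83).

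Within sleep-deprived mice, restraint raised Klf2 and Klf4 in females (0.941% of genes called), Ier3 in males (0.285%) and Ier3, Klf2, Klf4 and Maff in all mice (2.01%). The all-mice log2 fold changes were 0.86 for Ier3, 0.77 for Klf2, 1.18 for Klf4 and 1.13 for Maff, with adjusted p between 0.00168 and 0.00988. In females Klf2 rose by 0.85 (standard error 0.17, adjusted p = 0.0177) from a tight range of 4.37 to 4.92 CPM after PSD. Klf4 rose by 1.27 there (standard error 0.25, adjusted p = 0.0214). The call of Klf2 was lost without PSD + restraint female 1 or PSD female 2 or 3 (adjusted p 0.0516 to 0.0692), and that of Klf4 without PSD female 2, 3 or 4 (0.0610 to 0.0700). Maff in males, with a log2 fold change of 1.48 (adjusted p = 0.119), was called without PSD male 3 (1.97, adjusted p = 0.0342). These comparisons share the PSD + restraint mice with those against control.

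Whether prior PSD altered the restrained level was tested directly. PSD + restraint against restraint gave no call among the members in females (0.0332% of genes), males (0.00547%) or all mice (0.0951%), with 1, 2 and 1 members at an unadjusted p under 0.05, as were 2555, 1925 and 2560 of all genes tested. DESeq2 called Ier3 in males (log2 fold change 1.16, adjusted p = 0.000520), where edgeR's adjusted p was 0.205. Over all genes DESeq2 called 123 in that comparison and edgeR 1. The all-mice log2 difference for Ier3 was 0.61 (95% interval 0.22 to 1.0, adjusted p = 0.203), for Klf4 0.41 (-0.05 to 0.86) and for Maff 0.16 (-0.37 to 0.68). The PSD by restraint interaction was called for no member and for 0% of genes in females, males and all mice, with 1, 2 and 1 members at an unadjusted p under 0.05 among 766, 702 and 743 genes. Ier3 in males (interaction 1.14, standard error 0.26, unadjusted p = 0.000838) had the smallest of these p among the members. Maff had an interaction of -0.71 in females (95% interval -1.46 to 0.04) and of 0.76 in males (-0.32 to 1.84).

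The difference of a response between the sexes was called for 0% of genes in each of the 4 contrasts tested (restraint, PSD and PSD + restraint against control, and PSD + restraint against PSD). Unadjusted p fell under 0.05 for 2, 3, 3 and 1 of the 10 genes in that order, and for 804, 2038, 1363 and 872 of the 18936 genes tested. In control mice 2 members, Ier2 and Myc, were called higher in females, where 10.7% of all genes were called in either direction and 4.94% higher in females. Ier5 had a log2 difference of -0.31 (adjusted p = 0.0837), and Klf10 one of -0.37 (adjusted p = 0.0756) that was -0.17 without male control 1, the male with the highest Klf10 at 37.9 CPM. The Klf10 difference was called without control female 3 or control male 4 (-0.44 and -0.45, adjusted p = 0.0476 and 0.0462).

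Relatives of the members were read from fixed family lists. Of 16 KLF genes tested, 4 were called higher in all mice after PSD + restraint (Klf2, Klf4, Klf13 and Klf14), and the median log2 fold change of the family was 0.13. Klf14, an imprinted member of the family, rose by 0.80 in females after restraint (adjusted p = 0.0280) and by 1.27 after PSD + restraint (adjusted p = 0.000443), and by 0.94 in all mice after PSD + restraint. Klf13 rose by 0.40 in all mice after PSD + restraint (adjusted p = 0.00696). Of 6 MAF genes tested, Maff was called in all mice and Mafg, another small MAF, in males (0.39, adjusted p = 0.0186).

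In the MYC and MAX network 1 of 13 genes fell and 1 rose after PSD + restraint in all mice. Mycn, the paralog of Myc, fell by 1.0 on the log2 scale in females (adjusted p = 0.0333) and by 0.96 in males (adjusted p = 0.0455), and by 0.70 in all mice after restraint alone (adjusted p = 0.0428). Mxi1, a MAX partner that opposes MYC, rose by 0.39 in females after PSD + restraint (adjusted p = 0.00553). Mycn was also higher in control females than in control males (0.74, adjusted p = 0.0300).

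Among 20 early response genes of the AP-1, EGR, NR4A and related families, 13 were called higher in all mice after restraint, 17 after PSD + restraint and 0 after PSD, with median log2 fold changes of 2.23, 2.39 and 0.77. Over the 10 members the medians of the same comparisons were 0.38, 0.61 and 0.13. Of 15 upstream kinases and factors tested, Crem and Srf rose after PSD + restraint in all mice (1.33, adjusted p = 3.93e-06, and 0.44, adjusted p = 4.85e-05). Crem, a cAMP-responsive factor, was also called after restraint alone (1.01, adjusted p = 0.000733).

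Across the 28 mice, with the mean of each sex removed from the log2 CPM, the members varied together only in part. The 45 pairs had a median Pearson's r of 0.0914, from -0.53 (Klf10 with Myc) to 0.81 (Klf4 with Maff), and 6 pairs exceeded 0.5. Klf4, Maff and Ier3 formed a trio with r of 0.74 to 0.81, Klf2 was tied to Klf4 with 0.72, and Ier5 to Ier5l with 0.75. Ier2 stood apart from them, with r of 0.39 to Ier3 and to Klf4. The treatment groups are part of these mice, so that a shared response raises r, and no test was made.

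**Figure D3:**
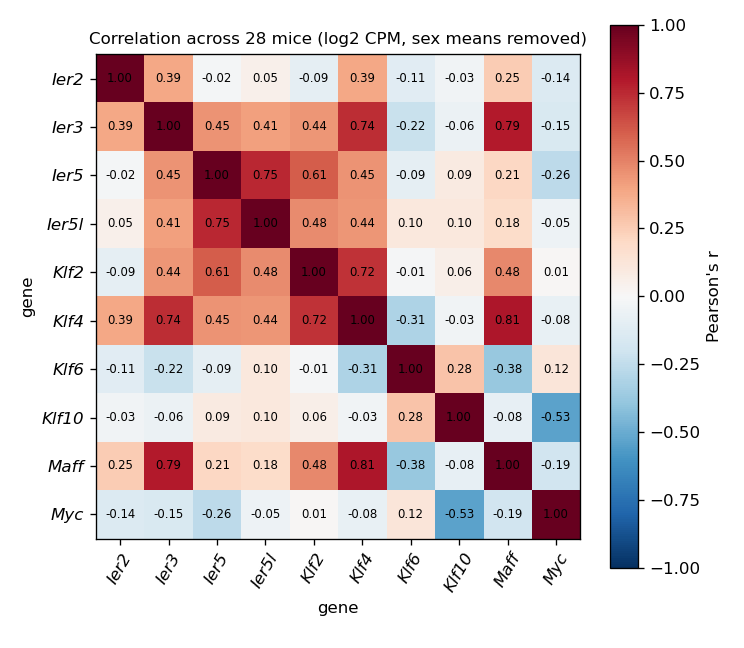
Pearson's r between the 10 genes over 28 mice, from log2 CPM with sex means subtracted; red is positive and blue negative. The block of Ier3, Klf4 and Maff has r of 0.74 to 0.81, and the strongest negative value is the -0.53 of Klf10 with Myc.

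Among all other genes, the ones most like Klf4 were Midn (r = 0.92), Nap1l5 (0.92) and Csrnp1 (0.92), and those most like Maff were Pard6a (0.90), Slc3a2 (0.89) and Acd (0.89). Ier3 was closest to Fam212b (0.86), Gprc5a (0.85) and Slc16a3 (0.84), and Klf2 to Kdm6b (0.83), Jmy (0.82) and Gtf2i (0.81). Ier2 was closest to classical immediate early genes, Btg2 (0.85), Fos (0.85) and Dusp1 (0.83). Myc was most like Ankra2 (0.86), Dab2ip (0.84) and Chst11 (0.84), and for Ier5, Ier5l, Klf6 and Klf10 the closest genes had r of 0.81 (Rcn2), 0.78 (Ap3s1), 0.70 (Fxr1) and 0.78 (Morc3). These are the highest values among all genes kept, in the same 28 mice, and describe these libraries.

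**Figure D4:**
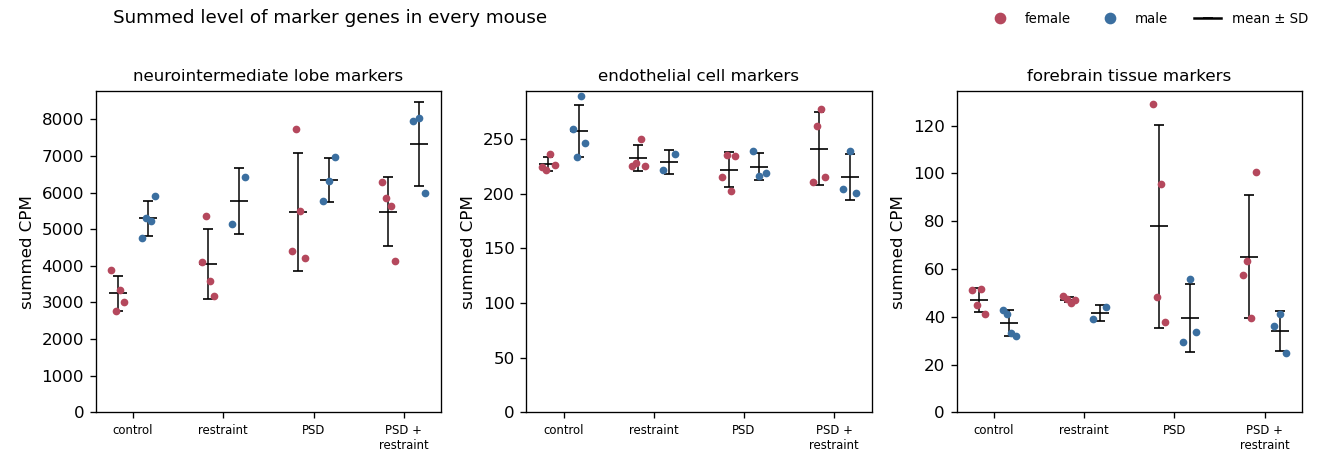
Summed CPM of neurointermediate lobe, endothelial and forebrain marker genes in every mouse, by treatment and sex, with the mean and SD of each group. All 8 PSD and PSD + restraint females are above the control females for the neurointermediate lobe, the endothelial sum lies between 201 and 289 CPM in all mice, and forebrain markers reach 129 CPM in PSD female 1.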

How the data were processed

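Paired-end reads of stranded mRNA libraries were aligned by the authors to mm10 and counted on UCSC gene models with HTSeq 0.9.1, and the deposited table holds raw counts per gene and mouse. A table of normalized counts, which the authors made with DESeq2 1.16.1, was not used. Mice were grouped by the labels, and the 37 pairs of mice within groups differed by more than counting noise (lowest chi-square per degree of freedom 6.43). In R 4.3.3 with edgeR 4.0.16, genes kept by filterByExpr (18059 in females, 18271 in males, 18936 in all mice) were normalized by TMM and tested by the quasi-likelihood test in models holding PSD, restraint, the interaction of both and, in all mice, sex, or holding a mean for each sex and treatment. Calls needed a p of 0.05 or less after Benjamini-Hochberg adjustment and a fold change of at least 1.25 in either direction. CPM used TMM factors, log2 CPM a prior count of 2, and lengths and positions GENCODE M21.

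The 10 members and the gene lists were chosen with earlier results of these data known. All 10 were named in each comparison, with the 3 genes most correlated with each, and up to 4 called genes of a family list. In simulated counts with 200 changed genes, edgeR recovered 177 of them in the female, 167 in the male and 189 in the all-mice comparison of restraint with control, and called 10, 3 and 7 unchanged genes. DESeq2 recovered 183, 171 and 190 and called 25, 23 and 18 unchanged genes. For the difference of the restraint response between the sexes, edgeR recovered 136 of 200 and called 4 unchanged genes, and DESeq2 recovered 143 and called 23. Each changed gene was doubled or halved in the restrained group and was drawn from genes above a minimum mean CPM. Recovery of smaller changes was not simulated. Alternatives were DESeq2 1.42.0, DESeq2's size factors in edgeR, no filter on low counts, the replicate number as a block, the score of the neurointermediate lobe markers as covariate, fits of only the groups compared, each mouse left out, and, chosen after seeing the data, the PSD + restraint mouse of each sex with the highest neutrophil marker sum left out.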

Additional observations from a re-analysis of the deposited data

Results flagged for a closer look

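Of 50 groups of 4 mice, taken gene by gene and sex by sex, 7 held a mouse far from the other 3 by Dixon's criterion, where chance alone flags about 1 in 20. Klf4 was 13.6 CPM in PSD + restraint female 1. Ier2 was 76.5 CPM in PSD female 2 and 32.6 CPM in restrained female 4. Myc was 24.2 CPM in PSD female 1 and 10.1 CPM in control male 2. In control males Klf6 was 51.9 CPM in mouse 2 and Klf10 37.9 CPM in mouse 1. Each of these mice was the highest of its group. The groups of 2 or 3 males were too small for this criterion.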

How the results depend on the processing

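None of the results changed direction under any alternative, for the members with an unadjusted p under 0.05. DESeq2 called 1 in PSD females and 1 in all PSD mice where edgeR called 0, 2 in restrained males (edgeR 0), 2 in PSD + restraint against PSD males (edgeR 1) and 1 in PSD + restraint against restraint males (edgeR 0). In restrained males 1 was called with no filter on low counts, with the neurointermediate lobe covariate and with only the groups compared. The neurointermediate lobe covariate left 0 of 4 calls in PSD + restraint females (52 of all genes against 398). Only the groups compared left 1 of 2 in PSD + restraint against PSD females (157 of all genes against 170). Leaving out the PSD + restraint mouse of each sex with the highest neutrophil marker sum left 2 of 4 in PSD + restraint males and 3 of 4 in females (Maff lost) and in all mice (Klf2 lost). Over all genes the calls fell there from 467 to 164 in males, from 398 to 307 in females and from 1034 to 722 in all mice. After PSD + restraint in all mice, only the groups compared added Ier2 (adjusted p = 0.0314) and Ier5l (0.0183), DESeq2 added Ier5l, and the lobe covariate lost Klf2; the covariate also lost Klf4 in males. Only the groups compared added Ier3 to restraint in all mice (0.0316), lost it in PSD + restraint against PSD (0.0517), and in PSD + restraint females added Myc and lost Maff. DESeq2 added Myc there. The covariate added Ier5 to the sex difference of controls (0.0161).

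Replicate numbers did not pair the mice: deviations of mice with the same number correlated with a median of -0.0179 in females and -0.0692 in males, and 4 of 16 females and 2 of 12 males correlated best with their own number. With the number as a replicate block, 2 of 4 members were called in PSD + restraint males, where Ier2 (adjusted p = 0.166) and Klf4 (0.160) were lost, and 147 of all genes against 467.

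With each mouse left out, 1 to 5 members were called in PSD + restraint females, 0 to 2 in PSD + restraint against PSD females and 0 to 2 males, 0 to 1 in restrained males, 2 to 4 in PSD + restraint males and 1 to 3 between control females and males. In the same order, the calls over all genes ran from 158 to 613, 88 to 157, 3 to 79, 19 to 63, 162 to 528 and 1427 to 2246. In PSD + restraint females the count fell to 1 without PSD + restraint female 1 or control female 3 or 4, and to 2 without PSD + restraint female 2 or 3 or control female 2; Klf4 was not lost in any of these. PSD + restraint against PSD in females gave 0 without PSD female 2 or 3, and in males 0 without PSD male 1 or 2. Over all genes DESeq2 called 730 against 398 in PSD + restraint females, 719 against 467 in males and 211 against 98 in restrained females. It called 442 against 5 in PSD females, 286 against 127 in all PSD mice and 102 against 54 in restrained males. For PSD + restraint males it called 200 against 52 in the comparison with PSD, and 123 against 1 in that with restraint.

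The 24 to 210 counts of Maff and 13 to 124 of Ier5l per library, the pair of restrained males and the spread between mice limit the precision of these comparisons.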
